A study of Mus musculus with 7 samples.

Results

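The globin genes and Ahsp, the gene of the alpha globin chaperone, were examined in TER-119+ CD71+ bone marrow erythroblasts that lacked Sod2, the gene of the mitochondrial superoxide dismutase. The members are 10 genes taken by name: the adult alpha globins Hba-a1 and Hba-a2, the embryonic alpha-like gene Hba-x, the adult beta globins Hbb-b1, Hbb-b2, Hbb-bs and Hbb-bt, the embryonic beta-like genes Hbb-bh1 and Hbb-y, and Ahsp. The array annotation holds 15 probe sets of these genes among 45037 tested. Of the 15, 11 are matched to 1 gene and 4 to several globin genes at once. A probe set of some kind was found for 9 of the 10 genes, out of 19324 gene symbols in the annotation, and 6 of them have one of their own. Hbb-b1, Hbb-bs and Hbb-bt are measured only through a probe set shared by all adult beta globins. Ahsp has 0 probe sets under this name in the annotation used and was not analysed here.

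RNA was hybridised to 7 Affymetrix mouse genome arrays, 3 of Sod2-/- erythroblasts (replicates 31, 35 and 39) and 4 of Sod2+/+ erythroblasts (replicates 17, 29, 33 and 37). The cells descend from fetal liver of E13.5-16.5 embryos from B6-Sod2tm1Cje heterozygous matings, transplanted into irradiated female B6 recipients aged 11 to 15 weeks. Both genotypes were therefore taken from transplanted animals, and Sod2-/- donor cells carry the deletion in every blood lineage. Donor and recipient differ at Ly5, but the sort as described used no donor marker, so erythroid cells left over from the host cannot be told apart. The sources used here do not say if the arrays stand for separate animals, and the p-values thus cover the spread from array to array, which may be technical. One more Sod2-/- array belongs to the study but not to the data analysed here. The genotype was not checked through Sod2 here, because which of its probe sets lie in the deleted part was not established. Sod2-/- replicate 39 stands apart in the complement genes of macrophages: C1qa, C1qb and C1qc read 7.65, 8.09 and 8.33 on it and no more than 4.68 on any other array. With or without that array, 0 globin probe sets were called. The values are log2 expression values, on which a difference of 1 is a doubling, and each probe set is a group of short probes for part of a transcript.

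Hemoglobin is a tetramer of alpha-like and beta-like chains, each holding a heme. The genes lie in clusters, the alpha-like genes on mouse chromosome 11 and the beta-like genes on chromosome 7. Primitive erythroid cells of the yolk sac use the embryonic genes Hba-x, Hbb-bh1 and Hbb-y, whereas the fetal liver and the adult marrow use Hba-a1, Hba-a2 and the adult beta genes. C57BL/6 mice carry the haplotype with Hbb-bs and Hbb-bt, while Hbb-b1 and Hbb-b2 name the adult genes of another haplotype. Transcription depends on KLF1, which binds CACCC-type elements, on GATA1 and its partners at GATA motifs, and on CCAAT-binding factors. Free alpha chains are unstable, and AHSP holds them until they meet a beta chain.

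The promoters show how alike or unlike the members are where these factors act. Of the 10 genes, 6 are in the RefSeq promoter table of GRCm38.p6, and Hbb-bh1, Hbb-b1, Hbb-b2 and Ahsp are named only. The 120 bases before each start are printed in the direction of transcription, with capitals for matches on either strand to CCNCNCCC (the KLF1 element), CACCC (which can overlap it), CCAAT, the GATA forms (AGATAA, otherwise AGATAG, otherwise TGATAA, otherwise TGATAG) and the TATA-like forms (ATAAAA, otherwise TATAAA). The shorter element CACCC was added to the search after the sequences had been seen.
Hba-x (chr11:32276480-32276599, plus strand): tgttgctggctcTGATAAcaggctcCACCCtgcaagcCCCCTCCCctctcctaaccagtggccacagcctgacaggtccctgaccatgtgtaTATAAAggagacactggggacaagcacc
Hba-a1 (chr11:32283552-32283671, plus strand): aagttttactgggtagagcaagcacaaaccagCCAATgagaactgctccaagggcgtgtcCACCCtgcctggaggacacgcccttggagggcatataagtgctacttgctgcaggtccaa
Hba-a2 (chr11:32296372-32296491, plus strand): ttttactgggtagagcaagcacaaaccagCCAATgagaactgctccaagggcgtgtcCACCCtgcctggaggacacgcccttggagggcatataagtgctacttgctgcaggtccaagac
Hbb-bt (chr7:103813924-103814043, minus strand): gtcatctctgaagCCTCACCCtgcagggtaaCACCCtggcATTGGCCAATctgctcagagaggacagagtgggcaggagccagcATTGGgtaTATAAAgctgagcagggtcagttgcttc
Hbb-bs (chr7:103827929-103828048, minus strand): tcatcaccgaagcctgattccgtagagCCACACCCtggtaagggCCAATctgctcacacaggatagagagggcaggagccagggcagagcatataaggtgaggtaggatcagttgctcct
Hbb-y (chr7:103853208-103853327, minus strand): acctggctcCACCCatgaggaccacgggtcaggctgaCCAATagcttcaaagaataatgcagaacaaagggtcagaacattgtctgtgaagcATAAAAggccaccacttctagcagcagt

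Hba-a1 and Hba-a2 share an unbroken run of 247 of the 250 bases before their starts, and any other pair of the 6 shares at most 14. All 6 windows hold CACCC, which is also in 31.7% of the 32851 promoter windows of this length. A CCAAT motif stands in 5 of the 6 (21.3% of all windows), and Hba-x is without a match. Hbb-bt, Hbb-bs and Hba-x match CCNCNCCC (34.6% of all windows), and only Hba-x matches one of the GATA forms (12.8% of all windows). A TATA-like form begins 28 bases before the start in Hbb-bt, Hbb-y and Hba-x, and 11.8% of all windows hold either form. The matches are a description of letters, and a missing match says only that these letters are not in the window.

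The adult alpha globins gave the strongest signal of the arrays and did not differ detectably between the genotypes. The probe set 1428361_x_at, matched to both Hba-a1 and Hba-a2, was the brightest of all 45037 on each of the 7 arrays. Its log2 values were 14.26, 14.39 and 14.27 in Sod2-/- replicates 31, 35 and 39, and 14.26, 14.28, 14.26 and 14.24 in Sod2+/+ replicates 17, 29, 33 and 37. The highest value belongs to Sod2-/- replicate 35, and the other Sod2-/- arrays lie inside the Sod2+/+ range. The difference was 0.05 ± 0.06 (SE) on the log2 scale, with a 95% interval of -0.10 to 0.19 and a limma adjusted p of 0.748.

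A second probe set for both genes, 1452757_s_at, read 13.28, 13.36 and 13.18 in Sod2-/- arrays and 13.26, 13.28, 13.34 and 13.17 in Sod2+/+ arrays. The groups overlapped over nearly their whole range, with a difference of 0.01 ± 0.07 and an adjusted p of 0.966. The third, 1417714_x_at, read 12.41, 12.47 and 12.46 in Sod2-/- arrays and 12.40, 12.58, 12.52 and 12.58 in Sod2+/+ arrays. Here 3 of the 4 Sod2+/+ arrays stand above all Sod2-/- arrays and replicate 17 stands below them. The difference was -0.07 ± 0.07 (adjusted p = 0.634). Because the coding genes are nearly alike in sequence, none of the 3 separates Hba-a1 from Hba-a2.

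Each alpha gene also has a probe set matched to it alone, and both are dim. Hba-a1, on 1453574_at, read 4.49, 4.55 and 4.40 in Sod2-/- arrays and 4.37, 4.18, 4.44 and 4.32 in Sod2+/+ arrays, around the median of 4.48 over all probe sets. Its difference of 0.16 ± 0.08 was the highest of the 15 and did not pass the test (adjusted p = 0.341, interval -0.03 to 0.34). Hba-a2, on 1427219_at, read 5.16, 5.11 and 5.11 in Sod2-/- arrays and 5.12, 5.41, 5.24 and 5.37 in Sod2+/+ arrays. Its difference of -0.16 ± 0.08 was the lowest of the 15 (adjusted p = 0.352, interval -0.35 to 0.03). In both cases single arrays of the genotypes overlap, Sod2+/+ replicate 33 for Hba-a1 and replicate 17 for Hba-a2. Whether these probe sets read the mature messages was not tested.

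The adult beta globins, read together by 1417184_s_at (Hbb-bt, Hbb-bs, Hbb-b2 and Hbb-b1), ranked second in signal on every array. Values were 14.08, 14.18 and 14.08 in Sod2-/- arrays and 14.11, 14.11, 14.08 and 14.06 in Sod2+/+ arrays. Again Sod2-/- replicate 35 is the highest and the other 2 fall inside the Sod2+/+ range. The difference was 0.02 ± 0.06, with an interval of -0.12 to 0.17 and an adjusted p of 0.884.

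Of the 2 probe sets matched to Hbb-b2 alone, 1427866_x_at read 10.81, 10.99 and 10.78 in Sod2-/- arrays and 10.77, 10.90, 11.08 and 11.02 in Sod2+/+ arrays (difference -0.08 ± 0.09, adjusted p = 0.693). The other, 1427865_at, read 4.13, 4.22 and 4.21 in Sod2-/- arrays and 4.25, 4.34, 4.28 and 4.12 in Sod2+/+ arrays (difference -0.06 ± 0.07, adjusted p = 0.721). Both overlap between the genotypes. Hbb-b2 is an adult gene of the haplotype that C57BL/6 does not carry, and which transcript gives the signal of the first was not tested.

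**Figure D1:**
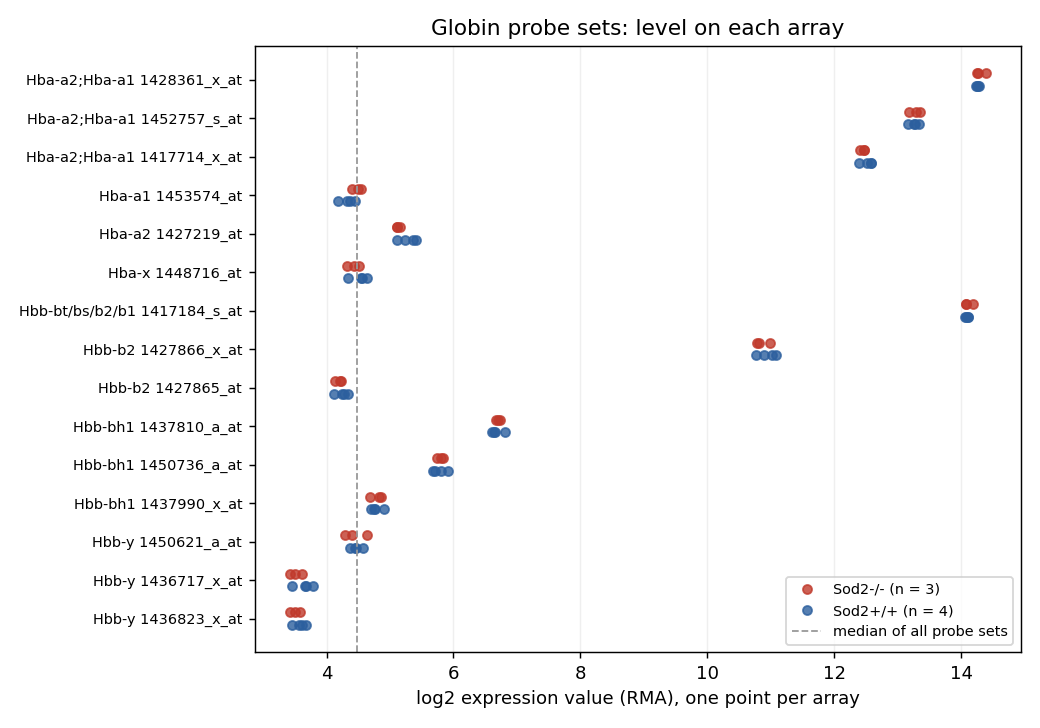
Log2 expression value (x axis, RMA) of each of the 15 globin probe sets (rows) on each array, with 3 Sod2-/- arrays in red above 4 Sod2+/+ arrays in blue in each row, and the median of all probe sets as a dashed line at 4.48. The shared adult alpha and beta probe sets lie between 12.40 and 14.39, the embryonic genes between 3.42 and 6.81, and the genotypes overlap in every row.

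Embryonic alpha-like globin, Hba-x (zeta chain), was measured near the median of all probe sets. On 1448716_at the values were 4.33, 4.43 and 4.50 in Sod2-/- arrays and 4.33, 4.55, 4.64 and 4.56 in Sod2+/+ arrays. All Sod2-/- arrays lie below 3 of the 4 Sod2+/+ arrays, and Sod2+/+ replicate 17 lies with the lowest Sod2-/- array. The difference of -0.10 ± 0.09 did not pass the test (adjusted p = 0.594, interval -0.30 to 0.10).

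Hbb-bh1 and Hbb-y, the embryonic beta-like genes, did not differ detectably either. The 3 probe sets of Hbb-bh1 gave differences of 0.02, 0.02 and 0.01, with adjusted p of 0.894, 0.942 and 0.955. On the brightest, 1437810_a_at, the values were 6.73, 6.71 and 6.67 in Sod2-/- arrays and 6.65, 6.64, 6.81 and 6.61 in Sod2+/+ arrays. On 1450736_a_at they were 5.81, 5.83 and 5.74 in Sod2-/- arrays and 5.71, 5.81, 5.92 and 5.67 in Sod2+/+ arrays. Sod2+/+ replicate 33 was the highest array on all 3 Hbb-bh1 probe sets, by 0.12 to 0.14 above their means over the arrays. The third, 1437990_x_at, lay within 4.69 to 4.86 in Sod2-/- arrays and within 4.71 to 4.90 in Sod2+/+ arrays.

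The Hbb-y probe set 1450621_a_at read 4.40, 4.64 and 4.30 in Sod2-/- arrays and 4.46, 4.46, 4.57 and 4.37 in Sod2+/+ arrays, so that Sod2-/- arrays held both the highest and the lowest value (difference -0.02 ± 0.09, adjusted p = 0.944). The other probe sets of Hbb-y were among the dimmest values of the members. On 1436717_x_at the range was 3.42 to 3.61 in Sod2-/- arrays and 3.46 to 3.79 in Sod2+/+ arrays (difference -0.14, adjusted p = 0.462). On 1436823_x_at it was 3.43 to 3.58 in Sod2-/- arrays and 3.46 to 3.68 in Sod2+/+ arrays (difference -0.08, adjusted p = 0.637). Sod2-/- replicate 35 was the highest array on the first Hbb-y probe set and the lowest on the other 2, so the probe sets of this gene did not move together. Of the 15 members, 6 lie below the median of all probe sets, and RMA values give no call of presence, so whether Hba-x and Hbb-y were expressed at all was not tested.

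Over the 15 globin probe sets, 0 passed the limma test at an adjusted p of 0.05, against 1530 of all 45037, or 3.4%. A count of 0 among 15 is near that background. At an unadjusted p under 0.05 the members again gave 0, against 19.5% of all probe sets. In 0 members did the genotypes separate without overlap, against 18% of all probe sets. The differences ran from -0.16 to 0.16, 7 above 0 and 8 below, with a median of -0.02 beside 0.03 over all probe sets. In a sorted population, fewer cells of a type and less RNA per cell cannot be told apart.

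What the arrays allow is given by the intervals. For the 5 members with a mean above a log2 value of 10, all of them adult alpha or beta probe sets, the 95% intervals together run from -0.30 to 0.19, or from 0.815 to 1.14 times the Sod2+/+ signal. Over all 15 members they run from -0.35 to 0.34. No member spanned 0.5 over the 7 arrays, the ranges being 0.12 to 0.374, so no genes were sought whose pattern over the arrays follows a globin.

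**Figure D2:**
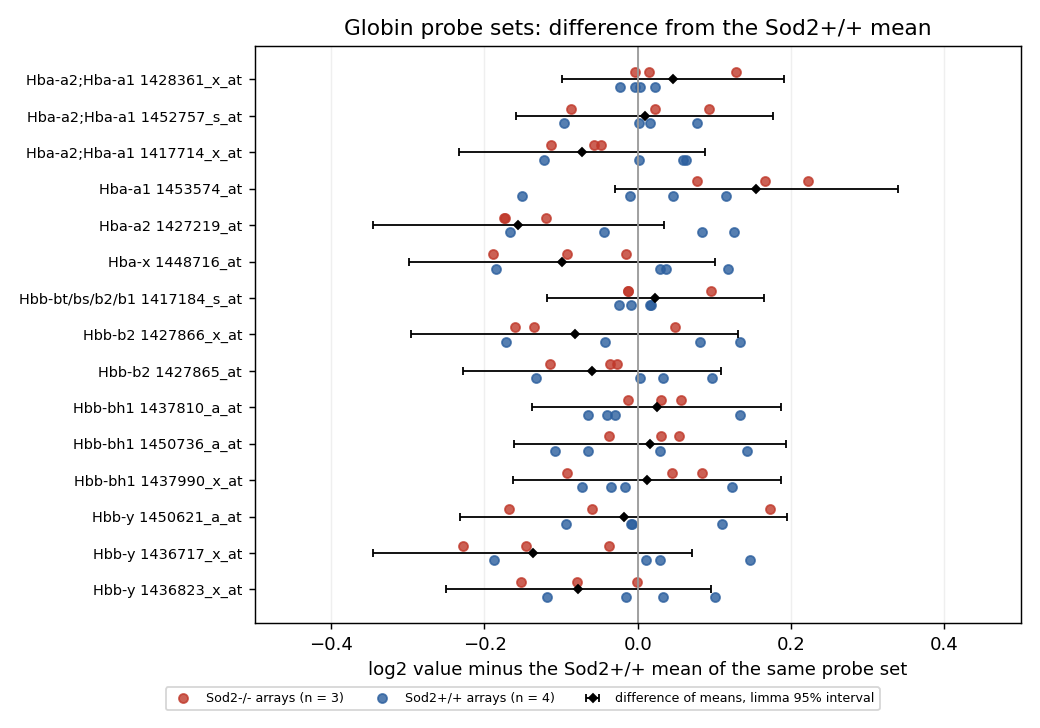
Log2 value of each array minus the Sod2+/+ mean of the same probe set (x axis) for the 15 globin probe sets (rows), Sod2-/- arrays in red above and Sod2+/+ arrays in blue below, with the limma difference and its 95% interval in black. All 15 intervals include 0, and the differences lie between -0.16 and 0.16.

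The place of the adult globins at the top of the scale bears on how far they can move. One step of RMA brings the arrays to a common distribution, which can hold a probe set that is brightest everywhere near the same value. How far it did so here was not tested. The maximum of an array, always the alpha globin probe set 1428361_x_at, lay between 14.24 and 14.39. Repeating quantile normalization on the deposited values gave this probe set a difference of exactly 0, by construction. Among the 11 probe sets with a mean of 13 or more, 3 of them globins, the median SD within genotypes was 0.05 and 0 were called. Between 10 and 12, where 1 globin probe set lies, the median SD was 0.15 over 653 probe sets and 11.6% were called. The differences above are therefore differences after normalization, and the amount of globin RNA per cell was not measured.

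**Figure D3:**
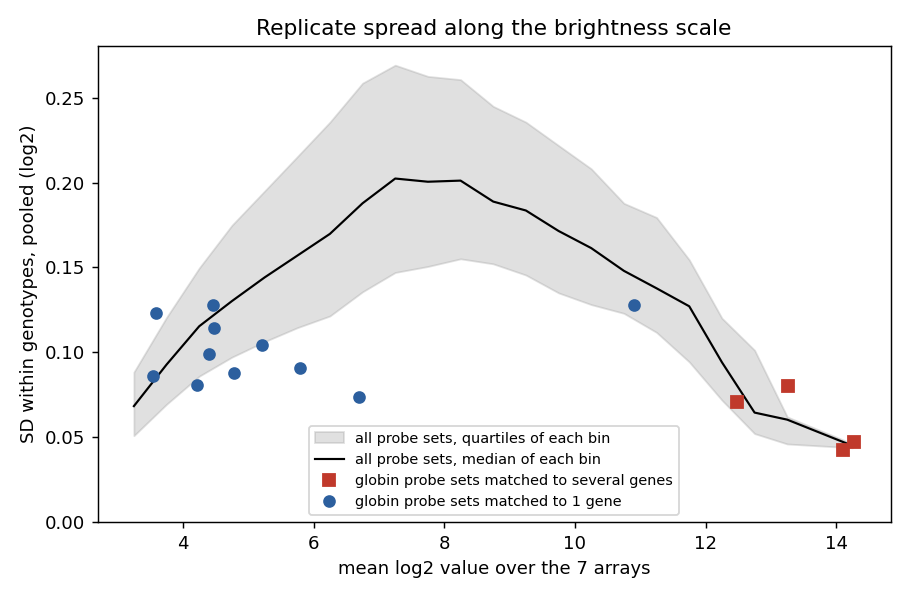
SD within genotypes (y axis, log2, pooled over 3 Sod2-/- and 4 Sod2+/+ arrays) against the mean log2 value over the 7 arrays (x axis), with the line and band giving the median and quartiles of all probe sets in bins of 0.5 and the points the 15 globin probe sets. The spread falls toward the top of the scale, where the bins above 13 hold 11 probe sets in all and where the shared adult globin probe sets (squares) lie.

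The balance of the chains was followed as a difference of log2 values within each array, of which only the change between genotypes can be read, because probe sets of different genes are not on one scale. The mean of the 3 shared alpha probe sets minus the shared beta probe set was -0.76, -0.78 and -0.77 in Sod2-/- arrays, and -0.80, -0.72, -0.71 and -0.74 in Sod2+/+ arrays. The Sod2-/- arrays lie within the Sod2+/+ range, and the genotypes differ by -0.03. The shared alpha and beta probe sets lie near the top of the scale, where normalization can hold values alike. A small difference therefore cannot show that the balance was kept. Embryonic minus adult balances differed by -0.01 for Hbb-bh1, -0.10 for Hbb-y and -0.09 for Hba-x. These are scores over members and were not tested.

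Batches of the hybridisation are known from the settings recorded with each array. Fluidics station 1 holds Sod2-/- replicate 31 and Sod2+/+ replicates 17 and 29, and station 2 the other 4 arrays. All Sod2+/+ arrays and Sod2-/- replicate 35 share a chip lot, and Sod2-/- replicates 31 and 39 have another. With station as a block, with chip lot as a block, within either station and within the chip lot of the Sod2+/+ arrays, 0 of 15 members were called. Only replicate 35 has the Sod2-/- genotype in the chip lot of the Sod2+/+ arrays. With the chip lot as a block, the genotype difference is therefore that of replicate 35 from the Sod2+/+ arrays. A fit within that lot gives the same differences by design. In both, Hbb-y on 1450621_a_at turned to 0.17 above 0.

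Genes that regulate or serve the globins were counted from lists, on the brightest probe set matched to each gene alone. Over 18193 such genes, 75 were higher in Sod2-/- erythroblasts (0.412%) and 813 lower (4.47%), and the median log2 fold change was 0.02. Among all probe sets the calls split into 255 higher and 1275 lower, and after quantile normalization into 656 higher and 826 lower. For the counts below, 19.5% of all probe sets had an unadjusted p under 0.05, and in 18% the genotypes did not overlap.

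Of 12 activators of globin transcription 1 was called higher and 0 lower in Sod2-/- erythroblasts, and the median was 0.10. At an unadjusted p under 0.05 the list gave 2 higher and 3 lower. The gene called was Mafg, a small Maf protein that pairs with NFE2 at the beta globin control region. Mafg read 9.31, 9.15 and 9.38 in Sod2-/- arrays and 8.82, 8.96, 8.84 and 8.84 in Sod2+/+ arrays, which do not overlap. Its difference was 0.42 ± 0.08 (adjusted p = 0.0322). The call is lost when any of the 7 arrays is left out: the adjusted p was 0.0676, 0.0618 and 0.0843 without Sod2-/- replicates 31, 35 and 39, and 0.0656, 0.0594, 0.0558 and 0.0837 without Sod2+/+ replicates 17, 29, 33 and 37. Of 13 other settings 4 kept the call. Among the 13, the t-test with unequal variances and station 2 alone called 0 of all probe sets, and the t-test with equal variances 4. Such settings could keep few or no calls, here and in the counts over 13 settings below. With the chip lot as a block the difference of Mafg, which rests on Sod2-/- replicate 35 alone, was 0.29. Ldb1, which bridges distant enhancers to the globin genes, had the largest difference of the list, -0.97 ± 0.23, and did not pass the test (adjusted p = 0.0625). Ldb1 read 7.01, 6.72 and 6.00 in Sod2-/- arrays and 7.69, 7.81, 7.47 and 7.20 in Sod2+/+ arrays, which do not overlap, and without Sod2-/- replicate 31 it was the 1 gene called lower.

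Neither of the erythroid master regulators Klf1 and Gata1 was called. Klf1 read 11.74, 11.88 and 11.62 in Sod2-/- arrays and 11.81, 11.70, 11.56 and 11.42 in Sod2+/+ arrays (difference 0.12 ± 0.11, adjusted p = 0.582). Gata1 read 10.75, 10.56 and 10.73 in Sod2-/- arrays and 10.70, 10.78, 10.53 and 10.69 in Sod2+/+ arrays, with a difference of 0.00 ± 0.08 (adjusted p = 0.997). The Sod2-/- values of Gata1 lie inside the Sod2+/+ range, and those of Klf1 reach above it on 1 array. Klf1, Gata1, Ldb1, Bcl11a, Sox6, Zbtb7a, Alas2, Eif2ak1, Nprl3, Sh3pxd2b, Olfr66 and the C1q genes were singled out after their values had been seen.

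Of 23 silencers of embryonic globins, 8 were called lower in Sod2-/- erythroblasts and 0 higher, with a median of -0.35. Over all genes 4.47% were called lower. At an unadjusted p under 0.05 the list gave 16 lower and 0 higher, against 19.5% of all probe sets in either direction. Of the 23, 19 had differences below 0 and 4 above. The 8 are Myb, Hdac2, Mta2, Nfix, Kdm1a, Hdac1, Ikzf1 and Rcor1. Myb, a transcription factor of progenitors whose reduction raises embryonic globin in mice, read 6.68, 5.88 and 6.94 in Sod2-/- arrays and 7.52, 7.70, 7.75 and 7.99 in Sod2+/+ arrays. Every Sod2-/- array lies below every Sod2+/+ array, by -1.24 ± 0.23 in the means (adjusted p = 0.0303).

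Hdac2, a histone deacetylase of the NuRD and CoREST complexes, read 6.88, 6.56 and 6.66 in Sod2-/- arrays and 7.50, 7.81, 7.65 and 7.95 in Sod2+/+ arrays. Its difference of -1.02 ± 0.12 (adjusted p = 0.0107) kept its call without any 1 of the 7 arrays, with an adjusted p of 0.0136 to 0.0455. Mta2, a subunit of NuRD, read 7.12, 7.11 and 6.63 in Sod2-/- arrays and 7.71, 8.00, 7.58 and 7.94 in Sod2+/+ arrays, a difference of -0.85 ± 0.15 (adjusted p = 0.0269). These genes serve many promoters beside those of the globins.

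The count of 8 rests on all the arrays together. Leaving out Sod2-/- replicates 31, 35 or 39 in turn gave counts of 5, 1 and 2. Leaving out Sod2+/+ replicates 17, 29, 33 or 37 gave 5, 1, 4 and 1. Calls over all probe sets fell too, from 1530 to 1161, 143 and 500, and to 840, 303, 1320 and 242, in the same order. The median of the list stayed between -0.39 and -0.28. A lower count in these fits therefore cannot by itself be told from the loss of calls over the whole array. Myb was called only without Sod2-/- replicate 39 (adjusted p = 0.0351) or Sod2+/+ replicate 17 (0.0485). Without Sod2-/- replicates 31 and 35 its adjusted p was 0.0508 and 0.0504, and without Sod2+/+ replicates 29, 33 and 37 it was 0.078, 0.054 and 0.0835. Mta2 lost its call without Sod2-/- replicates 35 (0.0711) and 39 (0.0524) and without Sod2+/+ replicates 29 (0.0677) and 37 (0.0734). Of 13 other settings, 7 kept the call of Myb, 6 that of Mta2 and 9 that of Hdac2. With the chip lot as a block the difference rests on Sod2-/- replicate 35 alone, and was -0.69 for Mta2, -1.86 for Myb and -1.16 for Hdac2. With the fluidics station as a block Myb had -1.25 (adjusted p = 0.0523). The count of silencers was 5 after quantile normalization and 4 with the fluidics station as a block.

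The silencers best known for the switch to adult globins in erythroid cells were not among the 8. Bcl11a had a difference of 0.15 (adjusted p = 0.339), Sox6 of 0.07 (adjusted p = 0.72) and Zbtb7a of -0.10 (adjusted p = 0.723). Embryonic globins, listed above, gave no call in either direction. Among all probe sets with a mean between 8 and 10, 15.8% were called and the median difference was -0.27. Other probe sets at a brightness near that of Rcor1, Hdac1 and Ikzf1 were thus often lower as well. No such share was computed below 8, where Myb, Hdac2, Mta2, Nfix and Kdm1a lie.

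**Figure D4:**
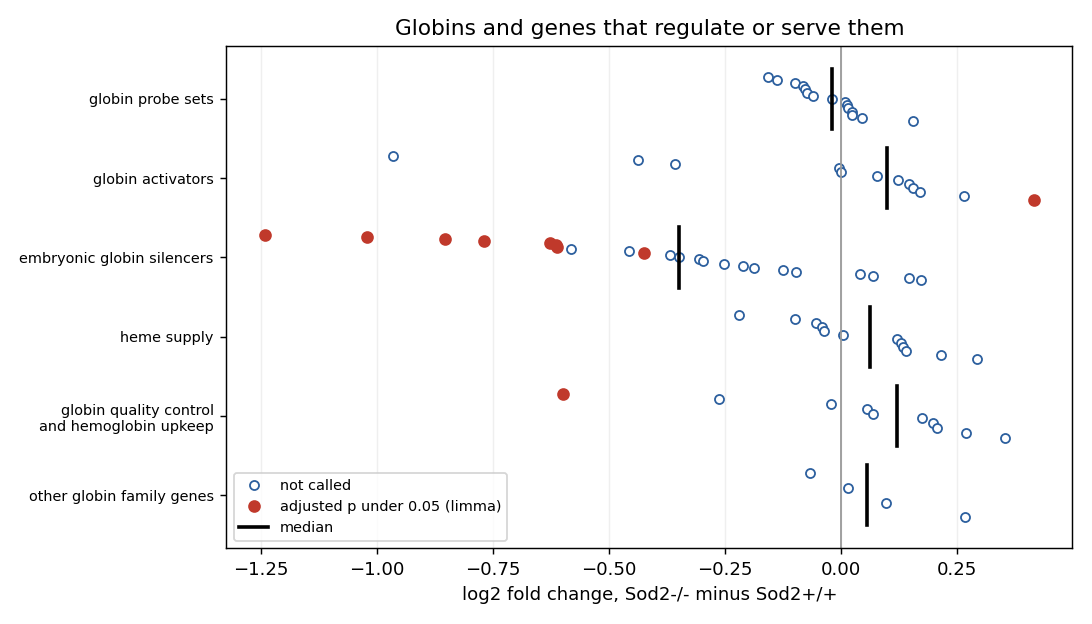
Log2 fold change, Sod2-/- minus Sod2+/+ (x axis), of the 15 globin probe sets and of the genes of 5 lists (rows), 1 point per probe set or gene, filled red where the limma adjusted p is under 0.05, with a black bar at each median. The globins sit within 0.16 of 0. Of 23 embryonic globin silencers 8 are called, all to the left, and 4.47% of all 18193 genes are called lower. The rows differ in brightness and were not compared by a test.

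Heme is the prosthetic group of every globin chain. Of 12 measured genes of heme supply 0 were called, with a median of 0.06, and at an unadjusted p under 0.05 the list gave 2 higher and 1 lower. Ppox, the oxidase before the last step of heme synthesis, had the largest difference, 0.29 ± 0.10 (adjusted p = 0.132). It read 10.95, 10.94 and 10.76 in Sod2-/- arrays and 10.68, 10.74, 10.51 and 10.43 in Sod2+/+ arrays. Alad, the second enzyme of the pathway, had -0.22 ± 0.09 (adjusted p = 0.244), and Alas2, the erythroid enzyme of the first step, 0.13 ± 0.06 (adjusted p = 0.307).

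Of 10 genes of globin quality control and hemoglobin upkeep, 1 was called lower and 0 higher, with a median of 0.12. At an unadjusted p under 0.05 the list gave 3 higher and 2 lower. The gene called was Cyb5r3, the reductase that with cytochrome b5 returns methemoglobin to hemoglobin. Cyb5r3 read 9.47, 9.25 and 8.90 in Sod2-/- arrays and 9.70, 9.98, 9.85 and 9.70 in Sod2+/+ arrays, without overlap. Its difference was -0.60 ± 0.13 with an adjusted p of 0.04999, at the threshold itself. The call was kept only without Sod2-/- replicate 31 (adjusted p = 0.0366). Without Sod2-/- replicates 35 and 39 the adjusted p was 0.137 and 0.0967, and without Sod2+/+ replicates 17, 29, 33 and 37 it was 0.0733, 0.124, 0.0851 and 0.0972. Of 13 other settings 3 kept the call of Cyb5r3. With the chip lot as a block its difference, which rests on Sod2-/- replicate 35 alone, was -0.56. The other 9 genes include Eif2ak1, the kinase that halts globin translation when heme is short, with 0.21 ± 0.09 (adjusted p = 0.256).

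Other members of the globin family include genes that act outside red cells. Of the 9 listed, 4 have a probe set of their own (Mb, Cygb, Ngb and Adgb), and 0 were called (1 at an unadjusted p under 0.05). Hbq1a, Hbq1b, Hbb-bh0, Hbb-bh2 and Hbb-bh3 have none. Ngb, neuroglobin, read 5.53, 5.82 and 5.82 in Sod2-/- arrays and 5.43, 5.48, 5.52 and 5.39 in Sod2+/+ arrays, which do not overlap, but its difference of 0.27 ± 0.09 did not pass over all probe sets (adjusted p = 0.135). Mb, the myoglobin of muscle, had 0.10 ± 0.10 (adjusted p = 0.663).

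Genes beside the clusters were followed as well, the 3 nearest with a probe set of their own on each side. Of 12 such genes, 0 were called, and 3 passed an unadjusted p under 0.05, 1 of them lower and 2 higher. Over all probe sets 19.5% passed that level and 18% did not overlap between the genotypes, so 3 of 12 is near the background. Nprl3, whose introns hold the enhancers of the alpha cluster, read 7.90, 7.76 and 7.46 in Sod2-/- arrays and 8.13, 8.50, 8.00 and 8.01 in Sod2+/+ arrays. The groups do not overlap, with a difference of -0.45 ± 0.15 (adjusted p = 0.13). On the other side of the alpha cluster Sh3pxd2b read 6.38, 6.37 and 6.47 in Sod2-/- arrays and 6.22, 6.15, 6.18 and 6.15 in Sod2+/+ arrays, also without overlap (difference 0.23 ± 0.06, adjusted p = 0.0859). Beside the beta cluster, the olfactory receptor gene Olfr66 had 0.21 ± 0.08 (adjusted p = 0.197).

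The label of the sorted cells was set against markers. The 8 measured erythroid markers gave 0 calls, with a summed linear level of 29576 to 32366 in Sod2-/- arrays and 28516 to 29587 in Sod2+/+ arrays. The 6 measured late erythroblast markers also gave 0 calls, but all 6 had differences above 0, 2 of them at an unadjusted p under 0.05, and their sums did not overlap (21312 to 23229 in Sod2-/- and 19089 to 21146 in Sod2+/+ arrays). Markers of other cells moved with genotype: of 9 B cell markers 7 were called lower (sums 282 to 331 in Sod2-/- and 612 to 734 in Sod2+/+ arrays), and of 5 mast cell, basophil or eosinophil markers 3 were called lower (345 to 611 in Sod2-/- and 997 to 2190 in Sod2+/+ arrays). The 10 neutrophil markers gave 0 calls, with sums of 16384 to 34050 in Sod2-/- and 34229 to 42762 in Sod2+/+ arrays, and 8 of them had an unadjusted p under 0.05, all lower. Of 9 macrophage markers 0 were called and 8 had differences above 0, with sums of 478 in Sod2-/- replicate 31, 375 in replicate 35 and 1442 in replicate 39, against 460 to 552 in Sod2+/+ arrays. Of 6 early or progenitor markers 1 was called lower, Myb, which is also a silencer above, while 3 of the 6 had differences above 0 and the median was 0.05. Their sums were 334 to 399 in Sod2-/- and 449.9 to 514 in Sod2+/+ arrays. Myb had the highest Sod2+/+ mean of the 6 (7.74) and the largest difference, so it weighs most in that gap. The 6 megakaryocyte and 4 T cell markers gave 0 calls. Myb, Ikzf1 and the deacetylases are expressed in B cells and myeloid cells too, and the part of such cells, and of the stage of the erythroblasts, in the lower silencer values was not tested.

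As a measure of RNA quality, the log2 ratio of 3′ to 5′ Gapdh control probe sets was 1.10, 1.10 and 1.21 in Sod2-/- arrays and 1.24, 1.25, 1.45 and 1.33 in Sod2+/+ arrays. The genotypes do not overlap, and the exact two-sided permutation p of 0.0571 is the smallest that 3 against 4 arrays allow. For beta actin the difference was -0.02 (exact permutation p = 0.857). The part of RNA quality in the values above was not tested.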

How the data were processed

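Affymetrix mouse arrays of sorted erythroblasts, 3 of Sod2-/- and 4 of Sod2+/+ cells, were analysed. Values are log2 expression values as deposited, computed by the authors with RMA (robust multi-array averaging), and GCOS 1.3.037 is also named in the submitters' processing notes. The study normalized 4 arrays of each genotype, and the sources used here do not say if the deposited values come from that run, with the Sod2-/- array not analysed here. Values were used as deposited, and chip lot and fluidics station came from the text settings deposited with each array. No read depth applies: the number of arrays limits the precision.

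After 64 control probe sets were set aside, 45037 were tested. The platform annotation matches 34945 to 1 gene and 932 to several. Globin probe sets are those whose symbol field holds a member gene, alone or with other globins. Genotypes were compared with limma 3.58.1 in R 4.3.3 (lmFit, eBayes, a genotype term alone). P-values were adjusted by Benjamini-Hochberg across the 45037 probe sets and called at 0.05. Adjusted p-values come from this fit except where a left-out array or another setting is named, and errors after ± are its SE. Groups of list genes were described by counts and medians, on the brightest probe set matched to a gene alone. Named genes are every member, and from each list the 3 called genes with the largest change, or the 2 largest where none was called. Members and lists were chosen with earlier results of these data known. RNA quality ratios were compared by exact permutation. The fit was tested on simulated data. Plots used matplotlib 3.10.9 (Python 3.11.15).

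Alternatives were the methods' t-test (equal and unequal variances), array weights, trended robust variances, median centring, quantile normalization, an offset of 32 on the linear scale, bright probe sets alone, station and chip lot as blocks or alone, the mean of a gene's probe sets, and leaving out each array. Promoter sequences are from RefSeq (GRCm38.p6). The files name no genome build for the probe sets, so the only coordinates given are those of the promoter table, and the order of genes along the chromosomes is that of the RefSeq gene table.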

Additional observations from a re-analysis of the deposited data

Results flagged for a closer look

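Mafg, the small Maf gene called higher in Sod2-/- erythroblasts, had 1 array of Sod2+/+ apart from the others: replicate 29 read 8.96, and its gap to the nearest of the other Sod2+/+ arrays was 0.882 of the group's whole range, above Dixon's 95% critical value for 4 samples. Of 24 values examined in this way, 1 was found, and chance gives about 1 in 20. Groups of 3, and so the Sod2-/- arrays, were not examined. Without replicate 29 the difference of Mafg was 0.45 (limma adjusted p = 0.0594), against 0.42 (0.0322) with all arrays.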

How the results depend on the processing

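No globin probe set was called under any of 13 alternatives or 7 fits without 1 array: the lowest adjusted p was 0.196, and the differences stayed between -0.23 and 0.22. Some of these settings called few or no probe sets at all, as given below. Among 189 values under the alternatives 18 changed sign, and 12 of 105 without 1 array, none larger than 0.17 in size. Quantile normalization gave -0.027 for 1452757_s_at, 0.034 for 1427866_x_at and -0.019 for 1437990_x_at, and moved Hbb-bh1 on 1437810_a_at to 0.21. Median centring gave -0.030 for 1452757_s_at, -0.016 for 1417184_s_at, -0.015 for 1437810_a_at, -0.024 for 1450736_a_at and -0.027 for 1437990_x_at. The chip lot as a block and the lot of the Sod2+/+ arrays alone give the same differences by design, and both are counted. They gave 0.049 for 1427866_x_at and 0.17 for 1450621_a_at. Station 1 alone gave -0.013 for 1428361_x_at, -0.030 for 1417184_s_at and -0.075 for Mb. Station 2 alone gave 0.018 for 1427865_at, -0.025 for 1437810_a_at, -0.0092 for 1450736_a_at and -0.029 for 1437990_x_at. Leaving out 1 array gave ranges of -0.024 to 0.064 for 1437990_x_at, -0.11 to 0.057 for 1450621_a_at, -0.032 to 0.058 for 1452757_s_at, -0.013 to 0.041 for 1417184_s_at and -0.020 to 0.063 for 1450736_a_at. The cause was not tested.

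List counts moved more. Quantile normalization called 2 activators higher (Mafg and Tal1), 5 silencers lower, 1 heme supply gene higher (Slc25a39) and 1 upkeep gene higher (Cyb5a). With station as a block 4 silencers were lower. Upkeep genes called lower fell to 0 after quantile normalization, with station as a block and with the mean of a gene's probe sets. Without 1 array, activators called higher numbered 0, activators called lower 0 to 1, silencers lower 1 to 5 and upkeep genes lower 0 to 1. Over all probe sets the methods' t-test called 4 with equal and 0 with unequal variances, the offset 231, the chip lot block 817, each station alone 0 and the chip lot of the Sod2+/+ arrays 502, against 1530. Without 1 array the count was 143 to 1320. Station 1 and that chip lot hold 1 Sod2-/- array each, assumed to vary like the other group. No paired analysis was possible because the genotypes share no replicate number and the labels do not say which arrays form the pairs that the study sorted in parallel.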
